A study of Mus musculus with 12 samples.

Results

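The 10 genes described here make up a short circuit of the BMP and TGF-beta pathway: the Id proteins (Id1, Id2, Id3), their E-protein partners (Tcf3, Tcf12), a BMP receptor (Bmpr1a), the receptor-regulated SMADs of the BMP branch (Smad1, Smad5) and the inhibitory SMADs (Smad6, Smad7). They were taken by gene symbol from a count table of 24934 genes, where all 10 were listed once, and all 10 were among the 13249 genes with enough reads to be tested. The genes were selected on prior knowledge of the pathway and also chosen by their fold changes and p-values in these same comparisons, which were in view when the set was proposed. Their values, counts and adjusted p-values therefore describe where they stand in a fit of all genes and are no independent evidence for any of them.

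The RNA came from BV2 cells, an immortalised mouse microglial cell line, in 3 groups of 4 libraries. The Acacetin group was, per the series design, taken through oxygen and glucose deprivation with re-oxygenation and given 10 µM acacetin, a plant flavone. The OGD group went through the same deprivation and re-oxygenation without the compound, and the Control group is labelled only as control. The sample labels themselves carry no durations, no vehicle and no note of deprivation for the Acacetin libraries, and all samples are the same cell line, which is a dividing line and not resident microglia. Nothing in the labels tells if replicate libraries were grown as separate cultures, so p-values may measure technical spread alone.

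Depth ran from 16427886 counted reads (OGD 3) to 32693066 (Acacetin 2). The 18S ribosomal RNA gene Rn18s took 13.1% of reads in OGD 2 and 21.3% in OGD 3, against 0.137% to 1.86% in the other 10 libraries. All 11 microglial and myeloid markers examined were tested genes, and their summed level, led by Lyz2, was 2900 to 4550 CPM (counts scaled to a common library size by TMM) in Acacetin libraries, 3480 to 4990 CPM in OGD libraries and 3920 to 4650 CPM in Control libraries. Summed markers of neurons stayed at or under 6.26 CPM in every library, of oligodendrocytes at or under 2.62 CPM, of endothelium at or under 2.2 CPM, of astrocytes at or under 0.427 CPM and of fibroblasts at or under 0.398 CPM. The defining genes Syt1, Aqp4, Mog, Col3a1 and Dcn were not listed in the table. The neuronal sum, led by Tubb3, was 1.59 to 3.66 CPM in Acacetin, 2.37 to 4.11 CPM in OGD and 3.29 to 6.26 CPM in Control libraries. Oligodendrocyte markers, led by Mbp, likewise summed to 1.1 to 1.8 CPM in Acacetin, 0.999 to 1.25 CPM in OGD and 1.82 to 2.62 CPM in Control libraries. The part of either list in the results below was not tested.

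As background, BMP ligands bind paired receptor kinases such as Bmpr1a, which phosphorylate Smad1 and Smad5, and these enter the nucleus with Smad4 and act on target genes. The Id genes are classic early targets of that route. Id proteins carry a helix-loop-helix without a DNA-binding region, so they pair with E proteins such as Tcf3 and Tcf12 and keep them off E-boxes in DNA. Smad6 and Smad7 are made as feedback inhibitors, Smad6 mainly of BMP signals and Smad7 of both BMP and TGF-beta signals. In microglia, the TGF-beta branch is known for keeping up the genes that mark the resident state.

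Promoter windows from RefSeq (build GRCm38.p6, 250 bases before to 50 after the annotated start) were used for 8 of the 10 genes, in 12 windows. Id1 had no entry in the promoter set used. The windows of 3 genes are shown: Id3 differed between groups where Id2 did not pass the test, and Smad6 is the inhibitor that was lower in the Acacetin group. Smad7 was left out of this step and its promoter was not searched, so no Smad7 window stands beside that of Smad6. Whether these sequences have a part in the differences between the genes was not tested. They lie at chr4:136143572-136143871 on the plus strand (Id3), chr12:25096043-25096342 on the minus strand (Id2) and chr9:64022010-64022309 on the minus strand (Smad6). Each is written 5′ to 3′ along its gene, with capitals for GTCTAGAC (the SMAD box palindrome), CAGAC or its reverse complement GTCTG (its shorter core) and GGCGCC (a GC-rich SMAD site).
Id3: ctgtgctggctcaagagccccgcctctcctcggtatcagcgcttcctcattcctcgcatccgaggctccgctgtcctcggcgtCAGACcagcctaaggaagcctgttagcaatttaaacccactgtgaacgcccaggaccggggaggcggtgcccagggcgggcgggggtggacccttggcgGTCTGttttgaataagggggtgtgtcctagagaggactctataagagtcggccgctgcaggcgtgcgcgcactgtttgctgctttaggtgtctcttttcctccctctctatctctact
Id2: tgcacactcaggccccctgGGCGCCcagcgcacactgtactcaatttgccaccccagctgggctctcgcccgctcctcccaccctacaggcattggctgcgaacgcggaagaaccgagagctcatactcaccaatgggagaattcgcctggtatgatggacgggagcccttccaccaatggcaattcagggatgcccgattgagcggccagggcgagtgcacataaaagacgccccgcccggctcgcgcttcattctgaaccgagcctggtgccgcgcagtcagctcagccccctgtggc
Smad6: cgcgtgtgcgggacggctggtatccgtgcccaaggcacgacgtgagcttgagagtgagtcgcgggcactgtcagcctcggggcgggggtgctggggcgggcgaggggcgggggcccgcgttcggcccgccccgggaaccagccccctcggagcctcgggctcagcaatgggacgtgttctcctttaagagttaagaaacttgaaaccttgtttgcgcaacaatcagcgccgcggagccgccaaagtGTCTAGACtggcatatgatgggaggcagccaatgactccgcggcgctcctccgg

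Both strands of each window were searched, and positions count from the annotated start. The Id3 window held CAGAC at 2 places, first base at -167 and at -68, and neither of the other SMAD motifs. CAGAC was in 49.6% of 32851 promoter windows of the same length, close to an even share. The Id2 window held GGCGCC at -231, a motif found in 11.9% of windows, and an E-box (CANNTG, 72.3% of windows) at -196, and no CAGAC. The Smad6 window held GTCTAGAC at -4 and an E-box at 8. That palindrome was in 0.213% of windows, 70 of 32851. A match is a description of letters and not a measured binding site, and no binding data were used here.

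The whole set ranged over more than an order of magnitude in level. By mean FPKM over the 12 libraries (fragments scaled by gene length and depth, the scale on which genes can be compared with each other), Id3 stood highest at 15.2, followed by Tcf3 at 12.2, Id2 at 11.6 and Id1 at 7.66. The other 6 genes lay at 1.08 (Smad6), 0.82 (Smad1), 0.549 (Smad7), 0.502 (Bmpr1a), 0.499 (Tcf12) and 0.402 (Smad5). Neighbours in this order overlapped over the 12 libraries in every case: Id1, at 1.22 to 14.8 FPKM, reached down into the range of Smad6, at 0.61 to 1.63 FPKM. Depth behind the values was ample for Id3, with 459 to 1300 reads per library, and thin for Smad5 and Bmpr1a, whose lowest libraries had 31 reads each.

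**Figure D1:**
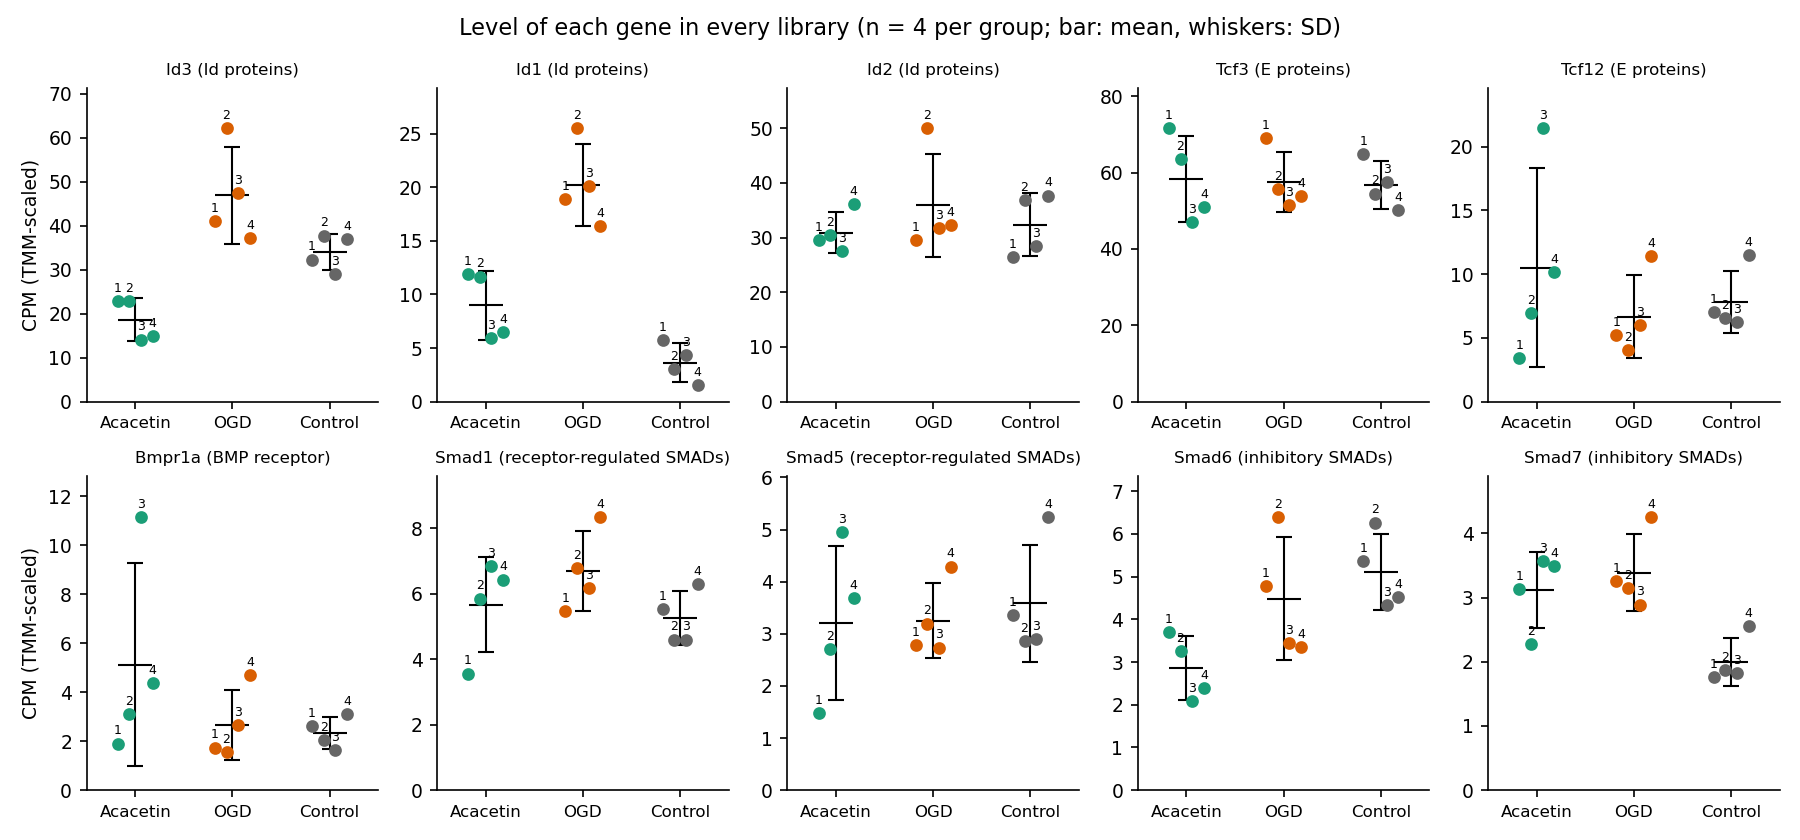
Level of each of the 10 genes in CPM in every library (points), with the group mean and SD over 4 libraries, for Acacetin, OGD and Control from left to right, 1 panel per gene with its own axis. Id1 separates all 3 groups, Id3 is lowest in the Acacetin libraries, and Tcf12 and Bmpr1a have 1 high Acacetin library (Acacetin 3) at 21.4 and 11.2 CPM.

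The calls of Id1, Id3 and Id2 against Control differed. Id1 was higher in OGD and in Acacetin cells than in Control cells, Id3 was lower in Acacetin than in Control cells, and Id2 passed the test in none of the 3 comparisons. In the comparison of Acacetin with OGD no gene of the whole table passed the test. Id3 and Id1 were the members with the smallest p-values there, both lower in Acacetin, with log2 fold changes of -1.33 and -1.17.

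Id1 (ENSMUSG00000042745.10, chromosome 2) had 11.9, 11.7, 5.94 and 6.46 CPM in Acacetin libraries 1 to 4, 18.9, 25.5, 20.1 and 16.4 CPM in OGD libraries 1 to 4, and 5.73, 3.03, 4.32 and 1.53 CPM in Control libraries 1 to 4. No library of one group fell inside the range of another, and the nearest pair was Acacetin 3 at 5.94 and Control 1 at 5.73 CPM. Means were 8.99 ± 3.23 CPM in Acacetin, 20.2 ± 3.84 CPM in OGD and 3.65 ± 1.80 CPM in Control cells (SD, n = 4 each). Within the Acacetin group, libraries 1 and 2 were about level with each other and higher than libraries 3 and 4.

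Of the 2 members called higher in OGD than in Control cells at an edgeR adjusted p under 0.05, Id1 had the larger change. It was higher by a log2 fold change of 2.47 ± 0.36 (SE), with an edgeR adjusted p of 0.000312 that ranked 289 among 13249 genes. In this comparison 28.8% of all tested genes were called, 16.2% higher and 12.6% lower. The log2 change of Id1 stayed between 2.03 and 2.77 and called in all 18 alternative fits, including 2.27 without OGD 2 and OGD 3 (adjusted p 0.00857).

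Against Control, Id1 was also higher in Acacetin cells, by a log2 fold change of 1.30 ± 0.35 (edgeR adjusted p 0.0143), and was called in 18 of 18 alternatives with a largest adjusted p of 0.0492. Between Acacetin and OGD its log2 fold change was -1.17 ± 0.34, with an unadjusted p of 0.00382 and an edgeR adjusted p of 0.712, which does not pass. The adjusted p of that comparison lay between 0.175 and 1.0 over 19 alternatives. The Acacetin level thus lay between those of OGD and Control, with every Acacetin library under every OGD library and above every Control library.

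Id3 (ENSMUSG00000007872.4, chromosome 4) had 22.9, 22.9, 14.1 and 14.8 CPM in Acacetin libraries 1 to 4, 41.0, 62.1, 47.5 and 37.1 CPM in OGD libraries 1 to 4, and 32.3, 37.8, 29.0 and 37.0 CPM in Control libraries 1 to 4. The Acacetin libraries were the lowest 4 of the 12, with no overlap with either other group, while OGD 4 lay inside the Control range. Mean levels were 18.7 ± 4.88 CPM in Acacetin, 47.0 ± 10.99 CPM in OGD and 34.0 ± 4.15 CPM in Control cells (SD, n = 4 each). The highest value, in OGD 2, came from a library rich in Rn18s. In FPKM the same libraries gave 8.5 to 11.6 in Acacetin, 15.02 to 22.9 in OGD and 13.5 to 19.2 in Control cells.

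Of the members, 1 was called higher and 2 lower in Acacetin than in Control cells, against 26.9% of all tested genes called (14.0% higher and 12.9% lower). Id3 fell by 0.87 ± 0.20 on the log2 scale, with an edgeR adjusted p of 0.00668, and was called in all 18 alternatives, with a largest adjusted p of 0.0251. Between OGD and Control its log2 fold change was 0.46 ± 0.20 with an edgeR adjusted p of 0.0966. That value passed with the trend over gene length removed (0.0299) and in a fit of those 8 libraries alone (0.0315). The log2 fold change was 0.30 without OGD 2 (adjusted p 0.302) and 0.21 without OGD 2 and OGD 3 (0.503).

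Between Acacetin and OGD, edgeR called 0 of the 10 members and 0 of 13249 genes (0%), and 3 members and 685 genes (5.17%) had an unadjusted p under 0.05. DESeq2 called 37 genes (0.285%), Id3 among them and no other member. Id3 had a log2 fold change of -1.33 ± 0.20 in edgeR, an unadjusted p of 1.18e-05 that ranked second of all genes, and an adjusted p of 0.0686. The call was gained with DESeq2 (1.02e-06), with the length trend removed (0.0107), with no filter on low counts (0.00606), with a block on the replicate number (0.0447) and without Acacetin 1 (0.0123). Over 19 alternatives the adjusted p ran to 0.999, the value without OGD 2 and OGD 3, where the log2 fold change was -1.03, and the change itself stayed between -1.44 and -0.97. Groups that did not overlap were seen for 2 members, Id1 and Id3, against 2.35% of all tested genes.

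Id2 (ENSMUSG00000020644.10, chromosome 12) had 29.5, 30.5, 27.5 and 36.2 CPM in Acacetin libraries 1 to 4, 29.6, 49.96, 31.7 and 32.2 CPM in OGD libraries 1 to 4, and 26.4, 36.8, 28.5 and 37.7 CPM in Control libraries 1 to 4. All 3 groups overlapped, and OGD 2 stood above the rest. Its log2 fold changes were 0.15 ± 0.18 for OGD against Control (edgeR adjusted p 0.589), -0.21 ± 0.18 for Acacetin against OGD (0.861) and -0.06 for Acacetin against Control (0.812). Its direction turned in each comparison under at least 1 alternative.

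Setting the Id genes against each other within a library removes library scaling from the comparison. The ratio of Id1 to Id3 in FPKM was 0.727 ± 0.0779 in Acacetin, 0.669 ± 0.0338 in OGD and 0.173 ± 0.0965 in Control cells (SD, n = 4 each). Acacetin and OGD libraries overlapped, at 0.648 to 0.80 and 0.633 to 0.71, and both lay above the highest Control library at 0.274. Id3 to Id2 instead set the Acacetin libraries apart, at 0.834 ± 0.245, from 1.80 ± 0.208 in OGD and 1.45 ± 0.149 in Control cells. The ratio of Id1 to Id2 was 0.62 ± 0.24 in Acacetin, 1.20 ± 0.154 in OGD and 0.258 ± 0.164 in Control cells. These ratios are built from the values that chose the genes and carry no test.

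**Figure D2:**
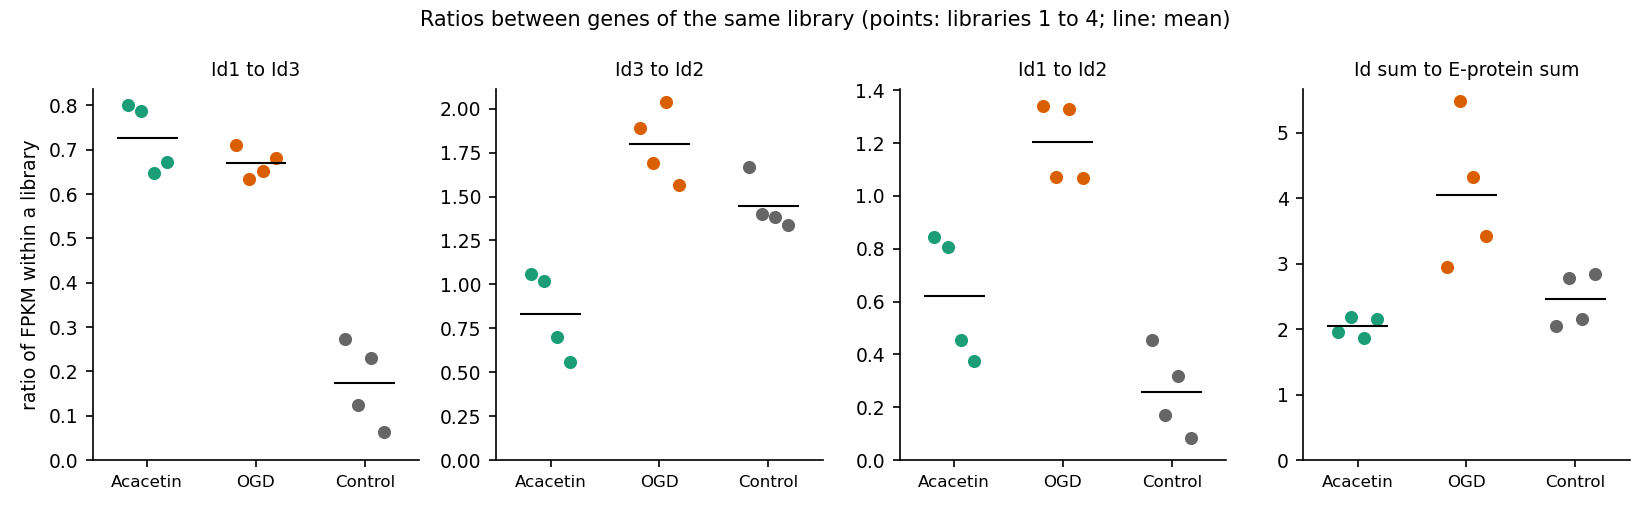
Ratios of FPKM within each library (points) between Id1, Id3, Id2 and the summed Id and E-protein genes, with the mean of 4 libraries as a line, for Acacetin, OGD and Control from left to right. The Id1 to Id3 ratio of Acacetin and OGD libraries overlaps, between 0.633 and 0.80, above all Control libraries, while the Id3 to Id2 ratio is lowest in Acacetin libraries, between 0.558 and 1.06.

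Neither E-protein gene passed the test in any comparison. Tcf3 (ENSMUSG00000020167.15, chromosome 10), which encodes the E2A proteins, had 47.0 to 71.6 CPM in Acacetin, 51.5 to 69.0 CPM in OGD and 50.1 to 64.8 CPM in Control libraries. Its log2 fold change was 0.02 ± 0.15 for OGD against Control, 0.02 for Acacetin against OGD and 0.04 for Acacetin against Control, with edgeR adjusted p-values of 0.944, 0.987 and 0.872. The sign of each of these small values turned under at least 1 alternative.

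Tcf12 (ENSMUSG00000032228.17, chromosome 9), the HEB gene, had 3.42, 6.96, 21.4 and 10.2 CPM in Acacetin libraries 1 to 4, 5.24, 4.05, 6.01 and 11.4 CPM in OGD libraries 1 to 4, and 7.04, 6.55, 6.23 and 11.5 CPM in Control libraries 1 to 4. The Acacetin libraries held both the lowest and the highest value of the 12, and the groups overlapped. Log2 fold changes were -0.22 ± 0.46 for OGD against Control, 0.65 ± 0.46 for Acacetin against OGD and 0.43 for Acacetin against Control, with edgeR adjusted p-values of 0.765, 0.835 and 0.502. Without Acacetin 3, the value was 0.037 against OGD and -0.18 against Control.

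The summed FPKM of Id1, Id2 and Id3 was set against that of Tcf3 and Tcf12. This ratio was 2.04 ± 0.155 in Acacetin, 4.05 ± 1.12 in OGD and 2.46 ± 0.417 in Control cells (SD, n = 4 each). The lowest OGD library, at 2.95, lay above the highest Acacetin library, at 2.18, and the highest Control library, at 2.85. The highest OGD values, 5.49 in OGD 2 and 4.33 in OGD 3, came from the libraries rich in Rn18s, and OGD 4 was at 3.42. The Id genes are also shorter, at percentiles 10.5 to 27.9 of length among tested genes, than Tcf3 at 51.1 and Tcf12 at 98.0. Whether Rn18s or length bears on the ratio was not tested. On the CPM scale the ratio was 0.854 in Acacetin, 1.64 in OGD and 1.09 in Control cells, and there OGD and Control overlapped, since OGD 1 at 1.21 lay under Control 2 at 1.27 and Control 4 at 1.24. It compares RNA levels, and protein levels were not measured here.

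Bmpr1a, Smad1 and Smad5, the receptor and the SMADs that carry BMP signals into the nucleus, did not pass the test in any comparison. Bmpr1a (ENSMUSG00000021796.16, chromosome 14) had 1.90, 3.12, 11.2 and 4.36 CPM in Acacetin libraries 1 to 4, 1.74, 1.55, 2.66 and 4.71 CPM in OGD libraries 1 to 4, and 2.62, 2.03, 1.63 and 3.12 CPM in Control libraries 1 to 4. Acacetin 3 stood far above the other 11 libraries, and the groups overlapped. Its log2 fold change was 0.18 ± 0.50 for OGD against Control (edgeR adjusted p 0.825), 0.95 ± 0.49 for Acacetin against OGD (0.177 to 1.0 over 19 alternatives, never passing) and 1.13 ± 0.49 for Acacetin against Control (0.103). Without Acacetin 3, the value was 0.23 against OGD and 0.42 against Control. Without Acacetin 1, the value against Control was 1.40 and passed (0.0194). An annotated antisense gene, Gm17110, overlaps exons of Bmpr1a (GENCODE M21, GRCm38) and had 46 reads over the 12 libraries. Whether counting used strand was not given in the sources used here, so the counts of Bmpr1a are uncertain to that extent.

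Smad1 (ENSMUSG00000031681.17, chromosome 8) lay between 3.56 and 6.84 CPM in Acacetin, 5.46 and 8.35 CPM in OGD and 4.60 and 6.30 CPM in Control libraries. Smad5 (ENSMUSG00000021540.17, chromosome 13) lay between 1.47 and 4.95 CPM in Acacetin, 2.73 and 4.29 CPM in OGD and 2.86 and 5.24 CPM in Control libraries. Ranges overlapped between all groups for both genes. The log2 fold change furthest from 0 among their 6 was 0.35 ± 0.23, for Smad1 in OGD against Control (edgeR adjusted p 0.295). Exons of Smad5 overlap those of Gm27301, an annotated misc_RNA gene on the same strand that is not listed in the count table. What part it has in the counts of Smad5 was not tested.

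Within the Acacetin group, the levels of Tcf12, Bmpr1a, Smad1 and Smad5 ran in the order of a property of the libraries. The slope of log2 level on relative gene length, computed over all tested genes against the mean library, was -0.213, 0.0295, 0.295 and 0.125 in Acacetin libraries 1 to 4, -0.0389, -0.15, -0.0849 and 0.172 in OGD libraries, and -0.0612, -0.0486, -0.0912 and 0.0675 in Control libraries. Acacetin 3, where Tcf12 and Bmpr1a were highest, had the steepest positive slope, and Acacetin 1, where Tcf12 was lowest, the steepest negative one. In Acacetin libraries 1 to 4, Smad1 was at 3.56, 5.85, 6.84 and 6.43 CPM and Smad5 at 1.47, 2.71, 4.95 and 3.68 CPM. Tcf12 is longer than most tested genes, at the 98.0th percentile of relative length, with Smad5 at 82.1, Bmpr1a at 75.3 and Smad1 at 74.8, while Id1 lies at 10.5, Id3 at 18.7 and Id2 at 27.9. With the length trend removed, the log2 fold change of Tcf12 was 0.24 for Acacetin against OGD and -0.01 for Acacetin against Control. That of Bmpr1a moved little, to 0.89 for Acacetin against OGD and 1.00 for Acacetin against Control, and that of Id3 for Acacetin against OGD was -1.25. Within the Acacetin group, Id1 and Id3 were lower in libraries 3 and 4, with the steepest positive slopes, than in libraries 1 and 2. What part the slope has in the spread of these genes was not tested.

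**Figure D3:**
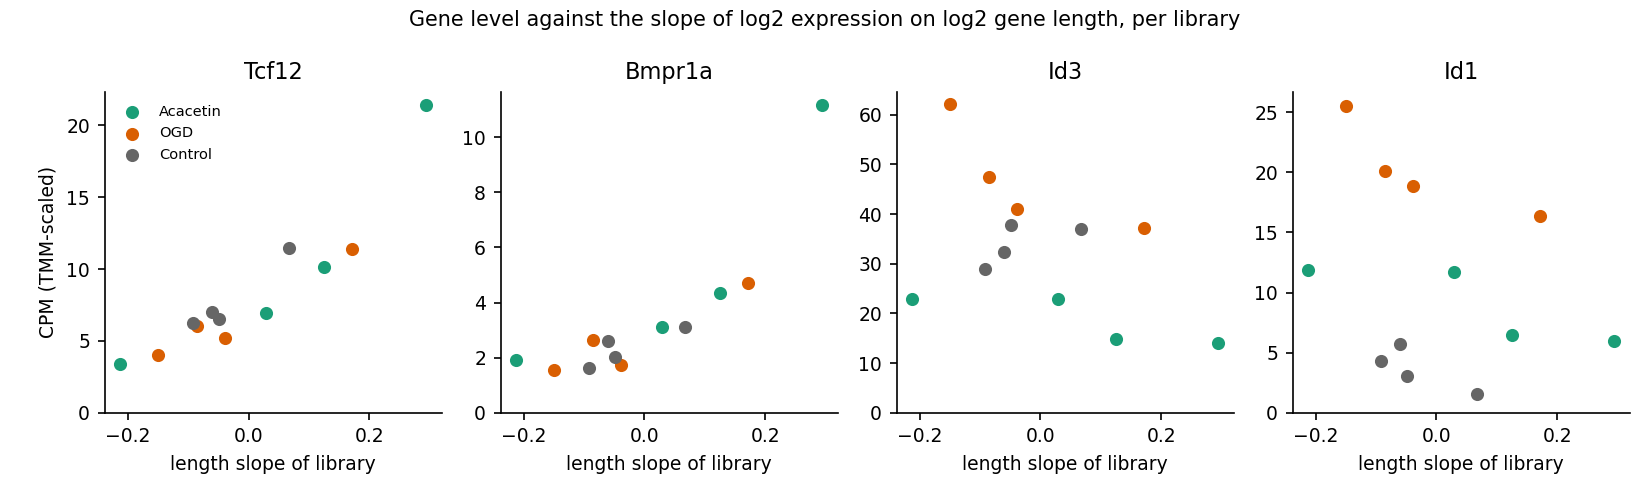
Level of Tcf12, Bmpr1a, Id3 and Id1 in CPM in each library against the library's slope of log2 level on log2 gene length, 1 point per library and 1 colour per group (Acacetin, OGD, Control). Tcf12 and Bmpr1a are highest in the library with the steepest slope, Acacetin 3 at 0.295, and the 4 Acacetin libraries span the whole x axis, while Id3 is at 22.9 CPM or less in all of them.

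The feedback inhibitors Smad6 and Smad7 were called in different comparisons by edgeR, Smad6 lower in Acacetin and Smad7 higher in OGD, each against Control. Smad6 (ENSMUSG00000036867.8, chromosome 9) had 3.70, 3.26, 2.09 and 2.39 CPM in Acacetin libraries 1 to 4, 4.77, 6.39, 3.44 and 3.35 CPM in OGD libraries 1 to 4, and 5.36, 6.26, 4.32 and 4.51 CPM in Control libraries 1 to 4. All Acacetin libraries were under all Control libraries, while the OGD libraries overlapped both. Smad6 fell by 0.84 ± 0.27 on the log2 scale in Acacetin against Control cells (edgeR adjusted p 0.0347). The call held in 10 of 18 alternatives. It was lost without Acacetin 2 (0.056), Acacetin 3 (0.0786), Acacetin 4 (0.0903), Control 1 (0.0773) or Control 2 (0.108), with no filter on low counts (0.0504) and on FPKM with limma (0.0732 and 0.0997). Its log2 fold change was -0.65 ± 0.27 for Acacetin against OGD (unadjusted p 0.0308, adjusted p 0.175 to 1.0 over 19 alternatives, never passing) and -0.19 ± 0.27 for OGD against Control (0.654).

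Smad7 (ENSMUSG00000025880.12, chromosome 18) had 3.13, 2.27, 3.57 and 3.49 CPM in Acacetin libraries 1 to 4, 3.25, 3.15, 2.89 and 4.25 CPM in OGD libraries 1 to 4, and 1.76, 1.87, 1.82 and 2.55 CPM in Control libraries 1 to 4. Every OGD library was above every Control library in CPM, and Acacetin 2 lay inside the Control range. In FPKM, which carries no TMM scaling here, OGD and Control overlapped. The OGD libraries inside the Control range of 0.32 to 0.52 FPKM were OGD 2 at 0.46 and OGD 3 at 0.36, both rich in Rn18s. Smad7 was the other member called higher in OGD than in Control cells, by a log2 fold change of 0.76 ± 0.24 (edgeR adjusted p 0.0309). That call held in 9 of 18 alternatives. It was lost without Control 1, 2 or 3 (0.0817, 0.0841 and 0.0764), without OGD 1 or 4 (0.0513 and 0.092), with no filter (0.0945) and on FPKM (0.27 and 0.281). Without OGD 2 and OGD 3 the call was also lost (0.0687), though the log2 fold change was larger there, at 0.92, with fewer OGD libraries in the fit. Against Control, the Acacetin cells had a log2 fold change of 0.64 ± 0.24 (0.0658; 0.0309 in DESeq2). Between Acacetin and OGD it was -0.12 (0.949).

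The ratio of Smad6 to Smad7 in FPKM was 1.37 ± 0.561 in Acacetin, 1.93 ± 0.727 in OGD and 3.71 ± 1.00 in Control cells (SD, n = 4 each). The highest Acacetin library, at 2.00, lay under the lowest Control library, at 2.52, and the OGD libraries, at 1.11 to 2.85, overlapped both.

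**Figure D4:**
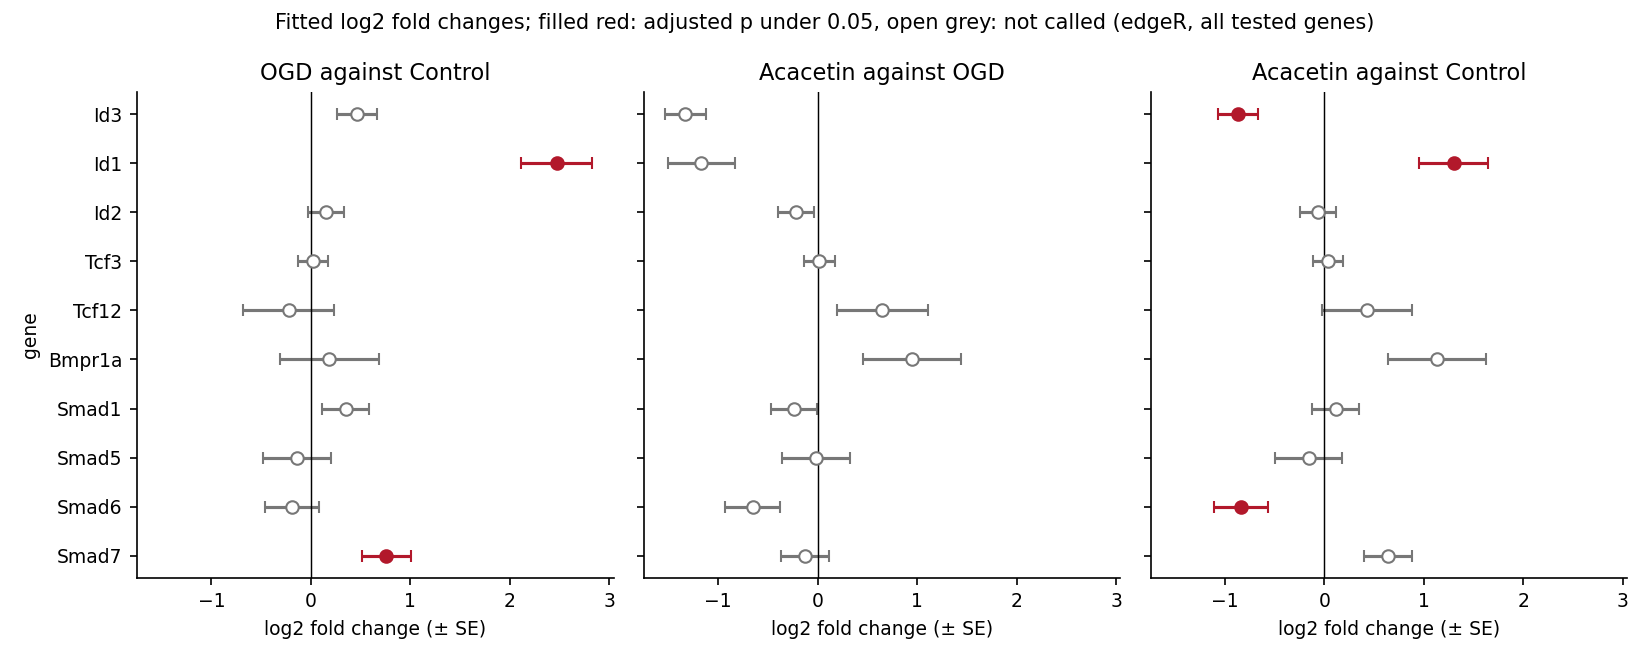
Log2 fold change of the 10 genes in the 3 comparisons (edgeR, bars are the standard error), with filled red points for an adjusted p under 0.05 and open points otherwise. Filled are Id1 and Smad7 for OGD against Control, Id1, Id3 and Smad6 for Acacetin against Control, and none for Acacetin against OGD, where Id3 lies furthest below 0 at -1.33.

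Over the 10 genes, the median log2 fold change was 0.17 for OGD against Control, -0.17 for Acacetin against OGD and 0.07 for Acacetin against Control, beside 0.026, -0.015 and 0.081 over all tested genes. Groups did not overlap in CPM for 2 members in OGD against Control, where 36.0% of all tested genes did not, and for 3 members in Acacetin against Control, where 25.7% did not. At an unadjusted p under 0.05 stood 3 members for OGD against Control, beside 39.3% of genes, and 5 for Acacetin against Control, beside 40.1%. With the length trend removed, edgeR called 3 members for OGD against Control (33.4% of genes), 1 for Acacetin against OGD (4 genes, 0.0302%) and 4 for Acacetin against Control (31.7% of genes). With DESeq2, 2 of 10 members were called for OGD against Control and 4 of 10 for Acacetin against Control, beside 33.3% of genes in each. Member counts in both comparisons with Control lie near the share of all genes. The comparisons share libraries pair by pair, so their fold changes are not independent of each other.

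The wider pathway was read from 8 lists of 133 symbols, of which 65 were tested. For OGD against Control 9 of the 65 were higher, 11 were lower and 45 did not pass, beside 28.8% of all tested genes called (16.2% higher, 12.6% lower). For Acacetin against Control 7 were higher, 12 lower and 46 did not pass, beside 26.9% of all tested genes called (14.0% higher, 12.9% lower). The counts of each list below stand against these same shares. No pathway gene was called for Acacetin against OGD by edgeR or DESeq2, and 6 had an unadjusted p under 0.05. Of the 20 genes named for OGD against Control, 8 were called in every alternative and 10 lost the call without OGD 2 and OGD 3. Of the 18 named for Acacetin against Control, 7 were called in every alternative and 11 lost the call on FPKM.

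The partners of E proteins were a list of 19 helix-loop-helix factors that pair with Tcf3 or Tcf12, of which only 4 were tested. Of these, 3 of 4 were higher in OGD than in Control cells, beside 16.2% of all genes. In Acacetin, 2 of 4 were higher than in Control cells, beside 14.0%. With 4 genes, listed with earlier results of these data known, these shares are a description only. The list is mixed: Tal1, Lyl1 and Ascl2 are tissue-restricted, while the fourth, Tcf4, is itself a broadly expressed E protein and was not called (log2 fold change -0.32 for OGD against Control and -0.28 for Acacetin against Control). The list's median log2 fold change was 1.21 for OGD against Control, beside 0.026 for all genes, and 0.78 for Acacetin against Control, beside 0.081. Tal1, a factor of blood cell formation, averaged 16.2 ± 3.99 CPM in Acacetin, 23.0 ± 3.42 CPM in OGD and 6.94 ± 1.07 CPM in Control cells (SD, n = 4 each). Its log2 fold change was 1.73 ± 0.20 for OGD against Control (edgeR adjusted p 9.44e-05) and 1.22 ± 0.19 for Acacetin against Control (0.000756), both called in every alternative. Lyl1, its close relative, averaged 314.5 ± 25.2 CPM in OGD and 196.1 ± 36.4 CPM in Control cells, higher by 0.68 on the log2 scale (0.0119, and 0.0688 without OGD 2 and OGD 3). Ascl2 was called higher in both comparisons at a low level that rests on few reads, 0.519 CPM in Acacetin, 0.773 CPM in OGD and 0.0856 CPM in Control cells.

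The list of SMAD target genes, without the Id genes, had 1 of 8 tested genes higher and 1 lower in OGD than in Control cells, and 0 higher and 1 lower in Acacetin than in Control cells. Cdkn2b, a cell cycle inhibitor that TGF-beta is known to induce, averaged 7.54 ± 1.48 CPM in Acacetin, 4.99 ± 0.797 CPM in OGD and 16.4 ± 2.52 CPM in Control cells (SD, n = 4 each). It fell by 1.71 ± 0.20 on the log2 scale in OGD against Control cells (edgeR adjusted p 0.000115), a call kept in every alternative. In Acacetin against Control cells Cdkn2b fell by 1.13 ± 0.19 (0.00122), again in every alternative. Hes1, a repressor better known as a Notch target, was higher in OGD cells at 1.00 against 0.157 CPM in Control cells (0.00675, and 0.079 without OGD 2 and OGD 3).

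Among 11 tested receptors, 0 were higher and 2 lower in OGD than in Control cells, and likewise 0 higher and 2 lower in Acacetin than in Control cells, beside 12.6% and 12.9% of all genes called lower. Tgfbr2, the receptor that binds TGF-beta first, averaged 14.1 ± 1.85 CPM in Acacetin, 13.9 ± 2.51 CPM in OGD and 27.4 ± 2.57 CPM in Control cells (SD, n = 4 each). It fell by 0.97 ± 0.16 on the log2 scale in OGD against Control (edgeR adjusted p 0.000629, called in every alternative) and by 0.96 ± 0.16 in Acacetin against Control (0.000912, lost on FPKM at up to 0.0716). Eng, the co-receptor endoglin, fell by 0.61 in OGD (0.0352, up to 0.15 in the alternatives) and by 0.75 in Acacetin (0.0146, up to 0.0772), both against Control.

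Of 6 tested ligands, 1 was higher and 2 were lower in each comparison with Control. Gdf11, a ligand of the activin branch, averaged 7.08 ± 0.284 CPM in Acacetin, 6.34 ± 0.659 CPM in OGD and 3.23 ± 0.546 CPM in Control cells, with log2 fold changes of 1.13 for Acacetin against Control and 0.97 for OGD against Control. The OGD change lost its call on FPKM (0.0753). Gdf15, a stress-induced cytokine of the family, averaged 24.6 ± 8.55 CPM in Acacetin, 28.7 ± 3.36 CPM in OGD and 67.6 ± 11.2 CPM in Control cells, and fell by 1.46 in Acacetin and by 1.24 in OGD against Control, in every alternative. Nodal was the second ligand called lower in each, at 0.734 CPM in Acacetin, 0.684 CPM in OGD and 1.76 CPM in Control cells, and kept its call in 10 of 18 alternatives in each.

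The list named ligand-binding regulators had 1 of 6 tested genes higher and 2 lower in OGD than in Control cells. Nrros, which anchors latent TGF-beta on microglia, averaged 154.8 ± 17.2 CPM in OGD and 96.4 ± 23.3 CPM in Control cells (SD, n = 4 each), higher by 0.68 on the log2 scale (edgeR adjusted p 0.0127, up to 0.0615 on FPKM). Ltbp3 and Ltbp2, named as genes of the latent TGF-beta binding protein family, fell by 1.25 and 1.20 at levels under 2 CPM. Both calls were lost without OGD 2 and OGD 3 (0.0925 and 0.178). The Ltbp3 call was kept in 17 of 18 alternatives. That of Ltbp2 was kept in 10 of 17, and was also lost on FPKM. In Acacetin against Control cells 0 were higher and 1 was lower, Ltbp2, which fell by 1.46 (0.0069, lost on FPKM).

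The intracellular regulators had the most tested genes of the 8 lists, 20, of which 3 were higher and 3 lower in OGD than in Control cells, and 4 higher and 3 lower in Acacetin than in Control cells. Ski and Skil, corepressors that bind SMADs, were among the higher genes, Ski at 25.4 ± 3.95 CPM in OGD and 15.8 ± 0.925 CPM in Control cells (log2 fold change 0.68, edgeR adjusted p 0.0025, up to 0.214 on FPKM). Skil was at 1.38 CPM in OGD and 0.444 CPM in Control cells (1.62, adjusted p 0.0455), a call kept in 7 of 18 alternatives. At 1.82 CPM in Acacetin cells it was called higher than in Control cells too (2.04, 0.0161), except on FPKM and without Acacetin 3 (up to 0.151). Ctdsp1, a phosphatase that acts on SMADs, was higher at 79.1 ± 17.1 CPM in Acacetin and 83.8 ± 1.47 CPM in OGD, against 47.7 ± 11.8 CPM in Control cells, in every alternative of both comparisons. Its relative Ctdsp2 fell by 0.57 in Acacetin (0.0124) and by 0.45 in OGD (0.0338), both against Control and both lost on FPKM. The OGD call was kept in 10 of 18 alternatives, and was also lost with no filter and without Control 1, Control 4, OGD 2, OGD 3 or both of these OGD libraries (up to 0.283).

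Tgif2, a SMAD corepressor, averaged 9.35 ± 0.876 CPM in Acacetin, 9.04 ± 2.19 CPM in OGD and 17.4 ± 0.685 CPM in Control cells. It fell by 0.94 in OGD against Control (edgeR adjusted p 0.0015, in every alternative) and by 0.90 in Acacetin against Control (0.00248, up to 0.0694 on FPKM). Runx1, a myeloid transcription factor that works with SMADs, fell by 0.74 in Acacetin (0.00133, up to 0.164 on FPKM) and by 0.55 in OGD (0.00633, up to 0.105 without OGD 2 and OGD 3), both against Control. The other SMAD genes tested, 3 in number, passed in no comparison.

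Of 7 tested genes that depend on TGF-beta in microglia, 0 were higher and 1 was lower in OGD than in Control cells, and 0 were higher and 3 lower in Acacetin than in Control cells. Cx3cr1, the fractalkine receptor, averaged 2.73 ± 0.603 CPM in Acacetin, 2.10 ± 0.469 CPM in OGD and 4.39 ± 0.327 CPM in Control cells. It fell by 1.07 in OGD against Control (edgeR adjusted p 0.00481, in every alternative) and by 0.68 in Acacetin against Control (0.0461, kept in 5 of 18 alternatives). Fcrls, a microglial Fc receptor-like gene, was also called lower in Acacetin than in Control cells, at 0.509 CPM in Acacetin and 1.25 CPM in Control cells, a call kept in 11 of 17 alternatives.

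**Figure D5:**
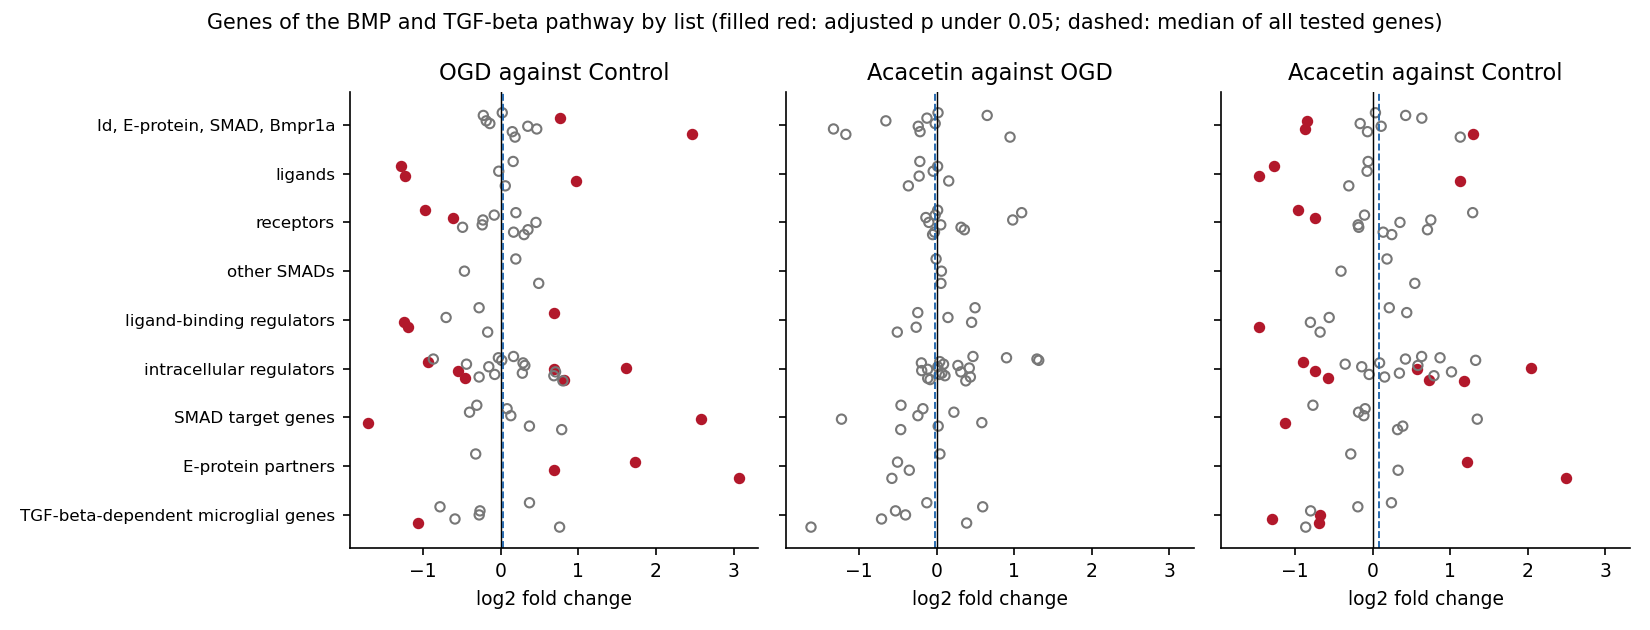
Log2 fold change of the tested genes of each pathway list and of the 10 genes themselves (top row) in the 3 comparisons, 1 point per gene, filled red where the edgeR adjusted p is under 0.05 and open otherwise, with a dashed line at the median of all tested genes. For OGD against Control 3 of the 4 genes listed as E-protein partners (Tcf4 is the open one) are filled and lie above 0, the 2 filled receptors lie below 0, and no point is filled for Acacetin against OGD.

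In bulk RNA, fewer cells of a kind and less RNA per cell cannot be told apart, and this holds for every level above. For Id1 and Id3 the most similar patterns over the 12 libraries were looked up among 9480 genes, as a description in which all points share library and depth. The log2 CPM of Id1 ran closest to that of Fjx1 (Pearson r 0.981, Spearman rho 0.972), H2ax (0.979 and 0.958), Csf1r (0.978 and 0.972), Cebpd (0.977 and 0.958) and Cela1 (0.974 and 0.958). All of these were highest in OGD, between in Acacetin and lowest in Control cells: Csf1r, the receptor of a microglial growth factor, averaged 100.6 CPM in Acacetin, 143.8 CPM in OGD and 66.3 CPM in Control cells. Id3 ran closest to Tep1 (r 0.939, rho 0.93), Isg20 (0.918 and 0.832), Aqp8 (0.917 and 0.867), Sh2d2a (0.914 and 0.811) and Serpina3g (0.903 and 0.825). Each had its lowest mean in Acacetin cells: Isg20, an interferon-stimulated gene, averaged 14.7 CPM in Acacetin, 31.5 CPM in OGD and 29.8 CPM in Control cells.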

How the data were processed

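RNA from BV2 cells was measured in 12 libraries, 4 per group. Total RNA was treated with DNase and made into stranded, paired-end mRNA libraries, per the labels' protocols. Tools listed in the submitters' processing notes, without versions or roles, are bcl2fastq, DESeq2 and HISAT2, with build GRCm39. Not given in the sources used here are the counting tool, the gene annotation and the use of strand. The authors deposited whole-number read counts per gene for 24934 genes, not normalized. The authors also deposited FPKM values for 24728 genes, scaled by gene length and depth. Among genes of higher level, FPKM to count ratios followed 1 factor per library and 1 length per gene, within 0.0017 log2 at the 95th percentile. Smad1, Smad5, Smad6, Smad7, Bmpr1a and Tcf12 lay below the level used for that check.

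Counts were filtered with filterByExpr (minimum count 10, minimum total 15), which kept 13249 genes, and were scaled by TMM. All 12 libraries entered 1 edgeR 4.0.16 quasi-likelihood fit (R 4.3.3) with a mean per group. Tests were two-sided, with Benjamini-Hochberg adjustment over all 13249 genes within each comparison and calls at an adjusted p under 0.05. The fit was tested on simulated data. CPM values are counts scaled to a common TMM-adjusted library size, and depth, 16427886 to 32693066 reads, limits only counting error, as PCR copies cannot be told from separate molecules.

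Alternatives were DESeq2 1.42.0, its size factors in edgeR, no filter, a mean of at least 1 CPM, the 8 libraries compared alone, a replicate block, a lowess (span 0.5) offset against relative gene length, limma 3.58.1 on log2(FPKM + 1) and log2(FPKM + 0.1), and leaving out libraries, also OGD 2 and 3 or Acacetin 1 and 3 together. FPKM values entered limma as deposited, with no TMM scaling added, so they are not adjusted for the Rn18s share of OGD 2 and OGD 3. The 10 genes and all lists were chosen with earlier results of these data known. Named are all 10 genes, in each pathway list and direction the called genes with the smallest p, at most 3, and the 5 genes of at least 2 CPM that correlate best with Id1 and with Id3. A gene that this rule names is not reported here. Promoter windows came from RefSeq on GRCm38.p6, another build than the files', and were matched by symbol.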

Additional observations from a re-analysis of the deposited data

Results flagged for a closer look

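In 3 of the 30 sets of 4 libraries (10 genes in 3 groups), the gap between the highest library and the next exceeded Dixon's critical share of the set's range. Their gap shares were 0.869, 0.845 and 0.866 in the order below. Chance flags about 1 in 20 groups. Id2 had 49.96 CPM in OGD 2, with the other OGD libraries between 29.6 and 32.2 CPM, and Rn18s took 13.1% of the reads of OGD 2. Tcf12 had 11.48 CPM in Control 4, with the other Control libraries between 6.23 and 7.04 CPM, and Smad7 had 2.554 CPM in Control 4, with the others between 1.76 and 1.87 CPM. Control 4 had the highest slope of level on gene length among the Control libraries, 0.0675. Whether Rn18s or the slope bears on these values was not tested.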

How the results depend on the processing

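Of 550 recomputed fold changes of the 10 genes, 467 kept their direction and their side of the threshold, 17 lost a call, 13 gained one and 53 changed sign, none of the 53 from a called value. The number of genes called for OGD against Control was 3813 and fell to 2010 without OGD 2 and 3, members called to 1 and the number of pathway genes called to 12, against 20 (10 of those 20 lost the call, so the 12 include others). Members called there were also 1 with no filter and on both FPKM scales. Genes called for Acacetin against OGD numbered 0, with 8 under no filter, 2 with the block, 4 with the length trend removed, 1 from 8 libraries, 37 in DESeq2 and 4 without Acacetin 1 and 3, and 1 member was called under no filter, the block, the length trend and DESeq2. On both FPKM scales 8 pathway genes were called for Acacetin against Control, against 19. Leaving out 1 library gave, for OGD against Control, 2798 to 3501 genes, 1 to 2 members and 16 to 21 pathway genes, for Acacetin against OGD, 0 to 9 genes and 0 to 1 members, and for Acacetin against Control, 2373 to 5818 genes (3559 with all), 2 to 4 members and 15 to 28 pathway genes.

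Signs turned as follows, in log2. For OGD against Control, Id2 was -0.016 on FPKM + 1, -0.019 on FPKM + 0.1 and -0.055 without OGD 2 and 3, Tcf12 0.11 without OGD 2 and 3, Bmpr1a -0.016 on FPKM + 0.1, and Tcf3 -0.019 in DESeq2 and with its size factors, -0.050 without the length trend, -0.12 on FPKM + 1 and -0.14 on FPKM + 0.1. For Acacetin against OGD, on FPKM + 0.1 and + 1, Id2 was 0.10 and 0.094, Smad1 0.028 and 0.021, Smad5 0.16 and 0.072 and Smad7 0.14 and 0.053. Smad5 was also 0.044 in DESeq2 and with its size factors, 0.051 under no filter and 0.068 from 8 libraries, Id2 0.046 and Tcf3 -0.035 without OGD 2 and 3, and Tcf3 -0.0038 without Acacetin 1 and 3. For Acacetin against Control, Id2 was 0.078 on FPKM + 1, 0.085 on FPKM + 0.1, 0.00064 without the length trend and 0.046 without Acacetin 1 and 3, Tcf12 -0.014 without the length trend and Smad5 0.0045 on FPKM + 1. Leaving out 1 library gave, for OGD against Control, Id2 -0.052 to 0.23, Tcf3 -0.082 to 0.088, Tcf12 -0.62 to 0.010, Bmpr1a -0.26 to 0.37 and Smad5 -0.31 to 0.085, for Acacetin against OGD, Tcf3 -0.10 to 0.12, Smad5 -0.30 to 0.21 and Smad7 -0.20 to 0.0072, and for Acacetin against Control, Id2 -0.15 to 0.058, Tcf3 -0.075 to 0.13, Tcf12 -0.18 to 0.77 and Smad5 -0.44 to 0.15. The cause was not tested.

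The Id to E-protein ratio by CPM was 0.854 in Acacetin, 1.64 in OGD and 1.09 in Control cells. The median of all genes moved to 0.24 (Acacetin against OGD), 0.17 (Acacetin against Control) and -0.11 (OGD against Control) on FPKM + 0.1. Replicate numbers paired the libraries only in part: deviations of same-numbered libraries correlated at 0.0708 to 0.506, -0.118 to 0.38 and -0.291 to 0.402 in the 3 comparisons. Library 4 correlated best with library 4 of the other group in each comparison (0.506, 0.38 and 0.402). Acacetin 3 also had its best match in OGD 4 and in Control 4. Numbers 1 and 2 matched best in some comparisons, and number 3 in none. Whether same-numbered libraries share a batch was not tested. With the replicate block 4572, 2 and 4279 genes were called for OGD against Control, Acacetin against OGD and Acacetin against Control. Depth limits Smad5, Smad7 and Bmpr1a most, with 31 to 37 reads in their lowest libraries.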
